A study of Mus musculus with 12 samples.

Results

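Nostrin, Bmper, Foxq1, Pth1r, Srgn, Tfec and Clic5 are 7 of the 23412 genes counted in mouse embryonic stem cells (mESCs) that lack HMGN1, HMGN2 or both. They were chosen by their RNA levels in these same libraries: genes outside the usual list of primitive endoderm markers whose level was higher in each single knockout than in WT and higher again in the double knockout. Their differences from WT, and between single and double knockouts, are therefore given as a description with no test. The difference between the single knockouts was not used to choose them, and it was tested.

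Poly-A RNA of male v6.5 mESCs, grown on gelatin in serum with LIF, was sequenced from 4 genotypes with 3 biological replicates each, giving 12 libraries of bulk RNA. The genotypes were WT, Hmgn1-/- (a homozygous 1 bp deletion in Hmgn1), Hmgn2-/- (a homozygous 1 bp insertion in Hmgn2) and Hmgn1-/-Hmgn2-/- (both changes). Each knockout line was grown from a single edited cell, with the double knockout derived from the Hmgn2-/- line through a further edit of Hmgn1, so clone and genotype cannot be told apart. The program that counted the reads, its annotation and its use of strand are not given in the sources used here. WT libraries held 31448468, 17614490 and 28524108 counts in replicates 1 to 3, Hmgn1-/- libraries 25953244, 21059862 and 21993042, Hmgn2-/- libraries 25908890, 26486535 and 17337908, and Hmgn1-/-Hmgn2-/- libraries 31005479, 22151507 and 26410485. Levels are CPM, counts scaled to a common library total and corrected by the trimmed mean of M-values (TMM), with scaling factors of 0.970 to 1.02. Hmgn2-/- replicate 3, which has the lowest factor, stood apart from its group: the chi-square per degree of freedom between replicates, over genes with 10 counts or more, was 34.3 and 19.5 for its pairs and 3.28 to 11.5 for all other pairs, and the cause was not tested. CPM is not divided by transcript length, so levels are compared between libraries and not between genes.

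The RNA of the edited genes was measured first. Hmgn1 stood at 662.5, 600.1 and 614.1 CPM in WT libraries, at 138.1, 139.3 and 141.5 CPM in Hmgn1-/- libraries, at 544.7, 556.1 and 639.9 CPM in Hmgn2-/- libraries and at 21.54, 19.93 and 21.36 CPM in Hmgn1-/-Hmgn2-/- libraries. Hmgn1 RNA was thus lower in both lines with the Hmgn1 edit, and lower in the double knockout than in Hmgn1-/- mESCs, with no overlap. Hmgn2 stood at 136.8, 122.6 and 119.6 CPM in WT, at 105.3, 113.1 and 109.2 CPM in Hmgn1-/-, at 50.74, 54.55 and 53.76 CPM in Hmgn2-/- and at 53.86, 50.53 and 54.19 CPM in Hmgn1-/-Hmgn2-/- libraries. The lines with the Hmgn2 edit lay below the others, and these 2 groups overlapped each other.

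In the nucleus, HMGN1 and HMGN2 sit on nucleosomes, mainly those over active promoters and enhancers. mESCs correspond to the epiblast of the early embryo, whose sister lineage, the primitive endoderm, gives rise to the visceral and parietal endoderm of the yolk sac. The transcription factors GATA6, GATA4 and SOX17 mark that lineage, and its parietal branch secretes a thick basement membrane of laminin and type IV collagen.

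Bmper encodes a secreted protein that binds bone morphogenetic proteins (BMPs) and adjusts their signal. It lies on chromosome 9 of GRCm38, from 23223076 to 23485215. Its level was 0.125, 0.283 and 0.139 CPM in the WT libraries, which held 4, 5 and 4 reads. It was 1.765, 1.15 and 1.93 CPM in Hmgn1-/- and 1.77, 1.93 and 1.31 CPM in Hmgn2-/- libraries, and 5.82, 4.88 and 5.31 CPM in Hmgn1-/-Hmgn2-/- libraries. All 6 single-knockout libraries lay above the WT libraries and below the double-knockout libraries, and the single knockouts overlapped each other. The mean was 0.182 ± 0.0874 CPM in WT and 5.34 ± 0.472 CPM in Hmgn1-/-Hmgn2-/- (SD, n = 3). The log2 FC against WT was 3.24 (SE 0.406) in Hmgn1-/-, 3.30 (SE 0.382) in Hmgn2-/- and 4.97 (SE 0.289) in the double knockout.

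Pth1r encodes the receptor for parathyroid hormone and parathyroid hormone-related protein, the latter known to promote the formation of parietal endoderm. The gene spans 110722085 to 110747145 on chromosome 9. WT libraries held 2.25, 1.47 and 2.36 CPM and Hmgn1-/- libraries 6.905, 5.06 and 5.46 CPM. Hmgn2-/- libraries, at 6.10, 6.09 and 5.77 CPM, lay within the span of the Hmgn1-/- libraries. The double knockout stood apart at 16.7, 13.6 and 14.1 CPM. Its mean of 14.8 ± 1.64 CPM was 7.11-fold that of WT in the fit, a log2 FC of 2.83 (SE 0.165), beside 1.49 (SE 0.205) for Hmgn1-/- and 1.54 (SE 0.195) for Hmgn2-/-.

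Foxq1, a forkhead transcription factor on chromosome 13 (31558170 to 31560976), was at 1.28, 0.7355 and 1.08 CPM in WT. It was at 6.10, 6.59 and 5.14 CPM in Hmgn1-/-, at 8.02, 6.78 and 8.15 CPM in Hmgn2-/- and at 15.5, 17.5 and 15.7 CPM in Hmgn1-/-Hmgn2-/- libraries. None of the 4 genotypes overlapped for Foxq1, the Hmgn2-/- libraries lying above the Hmgn1-/- libraries. Against WT the log2 FC was 2.47 (SE 0.219), 2.84 (SE 0.212) and 3.92 (SE 0.169) in Hmgn1-/-, Hmgn2-/- and the double knockout, the last a 15.1-fold difference.

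Tfec is a basic helix-loop-helix leucine zipper factor of the MiT family, whose members bind the E-box CACGTG. The gene lies on chromosome 6 from 16830927 to 16898464. In WT it had 2 reads in replicate 1 and 0 in replicates 2 and 3. Hmgn1-/- libraries had 23, 16 and 19 reads (0.882, 0.764 and 0.871 CPM), Hmgn2-/- libraries 32, 30 and 19 reads (1.23, 1.14 and 1.13 CPM), and Hmgn1-/-Hmgn2-/- libraries 68, 80 and 101 reads (2.18, 3.62 and 3.83 CPM). Tfec was near absent from WT libraries at this depth, and the 4 genotypes again did not overlap. The ratio of scaled counts to WT was 33.1 (95% interval 8.75 to 279) in Hmgn1-/-, 45.8 (12.3 to 385) in Hmgn2-/- and 122 (33.6 to 1020) in the double knockout. These exact binomial intervals, and those of the other count ratios given here, cover counting error only. The fitted log2 FC of Tfec rests on the 2 reads of WT replicate 1: without that library it was 9.33 in place of 6.73 in the double knockout, 7.29 in place of 4.799 in Hmgn1-/- and 7.76 in place of 5.27 in Hmgn2-/-, and the lowest values, without WT replicate 3, were 6.15, 4.23 and 4.70.

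Nostrin encodes an F-BAR protein that binds endothelial nitric oxide synthase, dynamin and caveolin at the cell membrane. It lies on chromosome 2 from 69135800 to 69189330. WT libraries held 2, 3 and 4 reads, or 0.0626, 0.170 and 0.139 CPM. Levels were 2.53, 1.86 and 2.11 CPM in Hmgn1-/-, 2.99, 1.82 and 1.84 CPM in Hmgn2-/- and 5.95, 5.92 and 4.82 CPM in Hmgn1-/-Hmgn2-/- libraries. The single knockouts overlapped each other, with replicate 1 highest in both, and neither overlapped WT or the double knockout. The ratio of scaled counts to WT was 48.5 (25.3 to 107) in the double knockout, 19.1 (9.81 to 42.6) in Hmgn1-/- and 19.7 (10.1 to 44) in Hmgn2-/-.

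Clic5 belongs to the chloride intracellular channel proteins and is tied to ezrin and the actin cortex in podocytes and hair cells. It spans 44134762 to 44280169 on chromosome 17. It was at 0.282, 0.566 and 0.556 CPM in WT, 0.729, 1.10 and 1.055 CPM in Hmgn1-/-, 0.844, 1.36 and 1.13 CPM in Hmgn2-/- and 2.30, 3.525 and 2.54 CPM in Hmgn1-/-Hmgn2-/- libraries. Its differences from WT were the smallest of the 7 genes on the log2 scale, yet WT, single-knockout and double-knockout libraries did not overlap. The log2 FC against WT was 1.07 (SE 0.369) in Hmgn1-/-, 1.30 (SE 0.364) in Hmgn2-/- and 2.61 (SE 0.316) in the double knockout.

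Srgn encodes serglycin, the proteoglycan core of secretory granules in blood cells, which is also made by endothelial and parietal endoderm cells. The gene lies on chromosome 10 from 62493833 to 62527445. WT libraries held 0.907, 1.075 and 0.695 CPM, Hmgn1-/- libraries 6.87, 5.16 and 5.50 CPM, Hmgn2-/- libraries 8.21, 6.70 and 7.43 CPM and Hmgn1-/-Hmgn2-/- libraries 17.95, 19.1 and 20.45 CPM. The double-knockout libraries lay above every other library, and the single knockouts overlapped only through Hmgn1-/- replicate 1 and Hmgn2-/- replicate 2. The double-knockout mean of 19.2 ± 1.25 CPM was 21.9-fold that of WT, a log2 FC of 4.46 (SE 0.16), beside 2.74 (SE 0.224) in Hmgn1-/- and 3.09 (SE 0.209) in Hmgn2-/-.

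**Figure D1:**
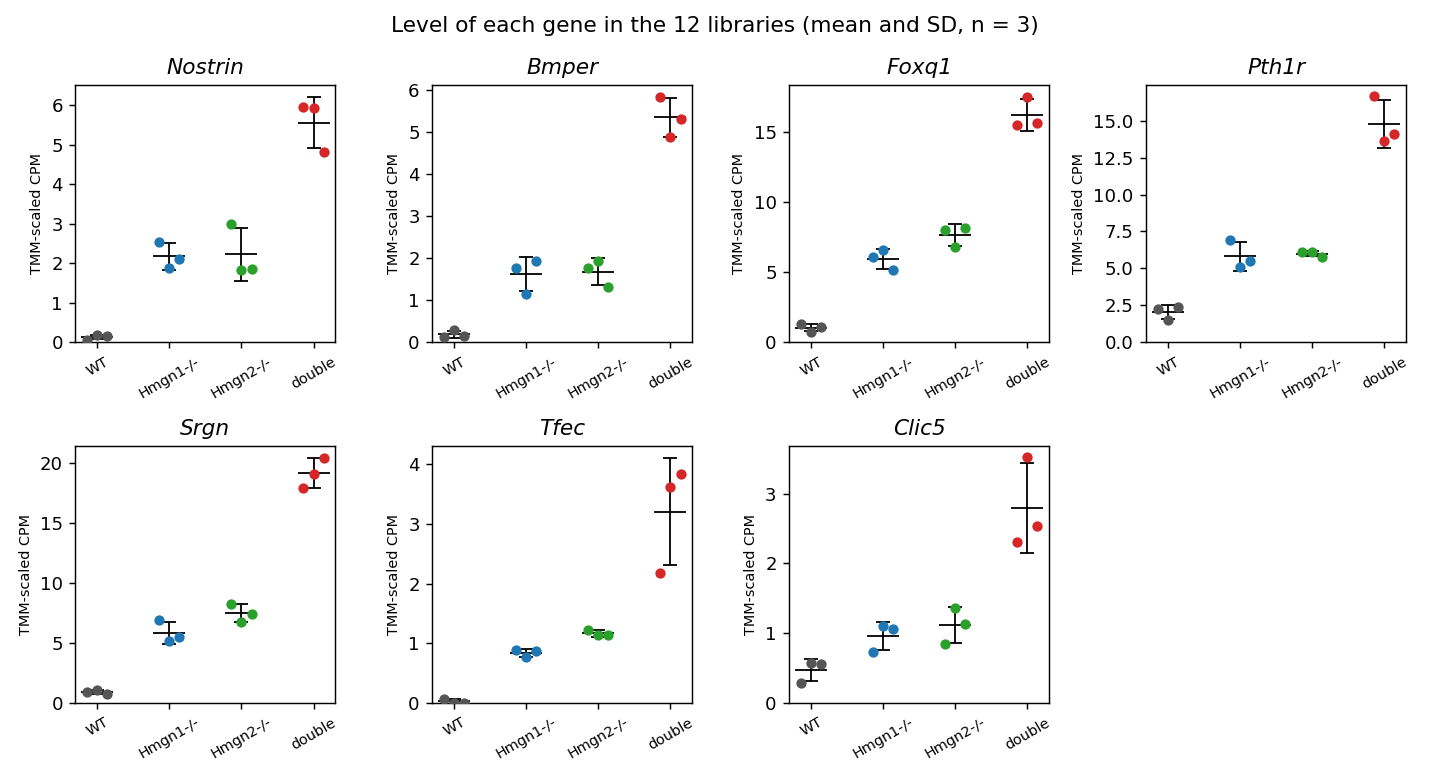
Level of each of the 7 genes in every library, in TMM-scaled CPM, for WT, Hmgn1-/-, Hmgn2-/- and Hmgn1-/-Hmgn2-/- (double) mESCs, with a point for each library and lines for the mean and SD of each group. For each gene the single-knockout libraries lie between the WT and the double-knockout libraries.

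In bulk RNA, fewer cells of a type and less RNA per cell cannot be told apart, nor can more of either. With all 7 genes, every single-knockout library lay above every WT library and below every double-knockout library. The same step was seen in 78 of 14323 tested genes (0.545%), and since the members were selected on it, nothing is read from that count. The replicate that was highest differed between genes: Hmgn1-/- replicate 1 and Hmgn2-/- replicate 1 were each the highest of their group for Nostrin, Pth1r, Srgn and Tfec, while in the double knockout replicate 1 was highest for Nostrin, Bmper and Pth1r, replicate 2 for Foxq1 and Clic5, and replicate 3 for Srgn and Tfec.

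A gene was called when edgeR's quasi-likelihood test gave a Benjamini-Hochberg adjusted p under 0.01 and the log2 FC was at least 1 in size. Against WT, 6 of the 7 members passed these limits upward in Hmgn1-/- (0.898% of all 13917 genes tested did), 6 in Hmgn2-/- (0.776% of 14047) and 7 in Hmgn1-/-Hmgn2-/- (1.30% of 14128). Clic5 was the member short of the limits in each single knockout. The comparisons share their WT libraries and, like the next ones, use the differences that chose the members, so the counts are given without a reading. Ordered by log2 FC in the double knockout among the 14128 genes, Tfec was at rank 1, Nostrin at 3, Bmper at 6, Srgn at 10, Foxq1 at 14, Pth1r at 22 and Clic5 at 29. The ranks follow from the choice of the members too, and nothing is read from them. Tfec had 2 reads in all of WT, and Tfec and Clic5 averaged under 50 counts in this comparison.

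The steps from the single knockouts to the double knockout also chose the members and are described only. Against Hmgn1-/-, the log2 FC of the double knockout ran from 1.34 (Pth1r) to 1.91 (Tfec), and 7 members passed the limits, beside 0.350% of 13710 genes called upward. That count was 6 without Hmgn1-/- replicate 1, without Hmgn1-/- replicate 2 or without Hmgn1-/-Hmgn2-/- replicate 2. Against Hmgn2-/-, from which the double knockout was derived, it ran from 1.09 (Foxq1) to 1.65 (Bmper), and Bmper, Foxq1, Pth1r and Srgn passed the limits, beside 0.0362% of 13816 genes. That number of members was 0 without Hmgn2-/- replicate 2, without Hmgn1-/-Hmgn2-/- replicate 2 or without its replicate 3, 1 without its replicate 1 and 5 without Hmgn2-/- replicate 1, and 7 by DESeq2.

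**Figure D2:**
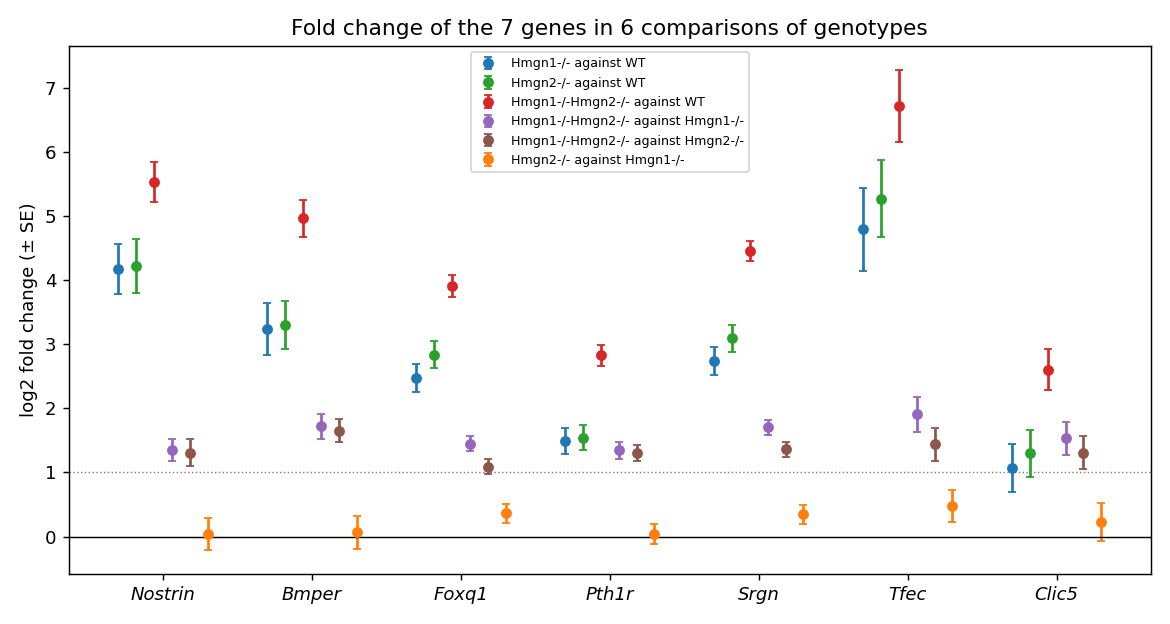
Log2 FC of the 7 genes in the 6 comparisons of genotypes, with bars for the SE derived from the edgeR test and a dotted line at 1. Values against WT are largest in the double knockout, from 2.61 for Clic5 to 6.73 for Tfec, and the values of Hmgn2-/- against Hmgn1-/- lie from 0.04 to 0.47.

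The single knockouts were compared with each other to ask whether loss of either protein was accompanied by the same levels. Levels in Hmgn2-/- libraries were slightly higher on average for all 7 genes, but no member passed the limits by edgeR's quasi-likelihood test, in which 24 of 13648 genes (0.176%) were called. The unadjusted p was under 0.05 for 2 members, and DESeq2 also called 0. Foxq1 had a log2 FC of 0.36 (95% interval 0.0379 to 0.685, unadjusted p = 0.0319 in edgeR) with no overlap of libraries, and Srgn one of 0.35 (0.00626 to 0.686, unadjusted p = 0.0466 in edgeR) with overlap. Tfec differed by 0.47 (-0.0866 to 1.03) without overlap and Clic5 by 0.23 (-0.433 to 0.884) with overlap. The values were 0.04 for Nostrin (-0.506 to 0.592), 0.07 for Bmper (-0.507 to 0.641) and 0.04 for Pth1r (-0.294 to 0.379), and these 3 turned negative when certain libraries were left out, at the lowest to -0.252 without Hmgn2-/- replicate 1 for Nostrin, and to -0.118 and -0.0464 without Hmgn1-/- replicate 2 for Bmper and Pth1r. The adjusted p was 1 for each member in edgeR. The intervals reach up to 1.03 on the log2 scale.

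The double knockout was also set against the sum of the single knockouts, as a description. On the log2 scale the departure from additivity (double knockout minus both single knockouts plus WT) was -3.35 (SE 0.76) for Tfec, -2.87 (SE 0.469) for Nostrin, -1.59 (SE 0.437) for Bmper, -1.38 for Foxq1 (SE 0.228) and Srgn (SE 0.232), -0.18 (SE 0.229) for Pth1r and 0.25 (SE 0.466) for Clic5. The double knockout was thus below the product of the single fold changes for most members, and near it for Pth1r and Clic5. The value of Tfec was -5.90 without WT replicate 1 and -2.78 without WT replicate 3. Nostrin, Foxq1, Srgn and Tfec were past the limits downward, beside 0.503% of 14323 genes downward and 3.48% in either direction. The levels in this contrast are those the members were selected on, so nothing is read from the count. That count of 4 became 3 without WT replicate 2 or 3, any of the Hmgn1-/- replicates, Hmgn2-/- replicate 1 or 2, or Hmgn1-/-Hmgn2-/- replicate 2. On the linear scale the order was the other way: the gain of the double knockout over WT exceeded the summed gains of the single knockouts for each member. It was 5.44 against 4.14 CPM for Nostrin (a ratio of 1.31), 15.2 against 11.5 CPM for Foxq1 (1.32), 18.3 against 11.5 CPM for Srgn (1.59), 3.19 against 1.96 CPM for Tfec (1.62), 12.8 against 7.74 CPM for Pth1r (1.65), 5.16 against 2.92 CPM for Bmper (1.77) and 2.32 against 1.14 CPM for Clic5 (2.04). These gains are differences of group means, and no spread was worked out for them. The members were selected on rising further in the double knockout, so nothing is read from this order either.

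Markers of the primitive endoderm moved with the 7 genes. Of the 12 genes on the list, 12 were tested and 11 rose in Hmgn1-/-Hmgn2-/- against WT in edgeR's quasi-likelihood test (11 by DESeq2), with a median log2 FC of 3.84 beside 0.0037 over all genes tested. Over all 14128 genes 6.30% were called in either direction. Cubn, the cubilin receptor, rose from 2.83 ± 0.661 to 114 ± 5.82 CPM (log2 FC 5.38, SE 0.114, adjusted p = 7.63e-13), and the adaptor Dab2 from 3.38 ± 0.379 to 73.1 ± 1.54 CPM (4.43, SE 0.0958, adjusted p = 7.63e-13). Among the transcription factors, Gata6 rose from 1.67 ± 0.335 to 25.1 ± 2.5 CPM (3.955, SE 0.15, adjusted p = 5.85e-10) and Sox17 from 0.433 ± 0.0784 to 11.8 ± 2.03 CPM (4.75, SE 0.222, adjusted p = 4.86e-09). Pdgfra, a growth factor receptor of this lineage, rose by a log2 FC of 4.89 (SE 0.169, adjusted p = 2.21e-10). For these genes, and for every other list gene said here to rise or fall, the 3 double-knockout libraries lay on the same side of the 3 WT libraries. The list was written with earlier results of these libraries known and is not independent evidence of its direction.

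The summed level of the 12 markers, lowest among Hmgn2-/- libraries in the replicate 3 that stood apart, was 102.3, 128.9 and 118.2 CPM in WT, 223.1, 179.2 and 181.4 CPM in Hmgn1-/-, 289.4, 240.5 and 172.6 CPM in Hmgn2-/- and 493.2, 477 and 445.6 CPM in Hmgn1-/-Hmgn2-/- libraries. Lrp2 was the most abundant gene of the list in each library. Without it the sums were 17.02 to 19.27 CPM in WT, 102 to 131.3 CPM in Hmgn1-/-, 100.6 to 158.3 CPM in Hmgn2-/- and 304.4 to 327.4 CPM in the double knockout, the same order as in the 7 genes. Hmgn1-/- replicate 1 and Hmgn2-/- replicate 1, the libraries in which Nostrin, Pth1r, Srgn and Tfec were highest within their groups, also had the highest sums there, but Clic5 was at its lowest within each group in these same libraries. In the double knockout it was not so: replicate 1 had the highest sum and was the highest library for Nostrin, Bmper and Pth1r, but the lowest for Foxq1, Srgn, Tfec and Clic5. No marker of the list was at 0 in any library. The part of these markers in the levels of the 7 genes was not tested.

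**Figure D3:**
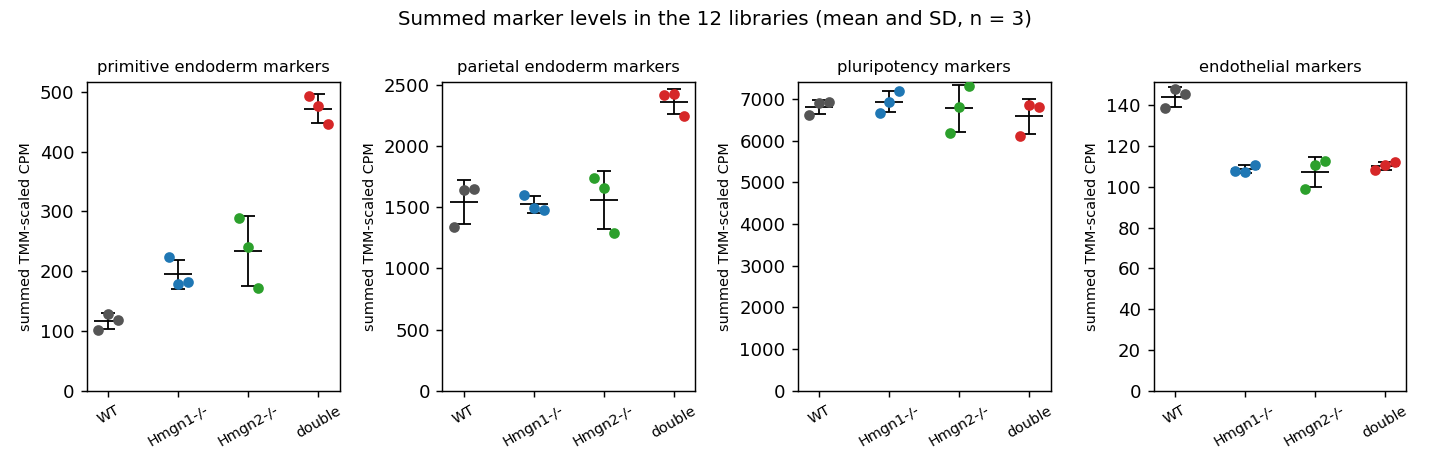
Summed level of the primitive endoderm, parietal endoderm, pluripotency and endothelial markers in TMM-scaled CPM by genotype, with a point for each library and lines for mean and SD. The primitive endoderm sum runs from 102.3 CPM in a WT library to 493.2 CPM in a double-knockout library.

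Of the 11 parietal endoderm markers tested, 4 rose and 1 fell in the double knockout (5 by DESeq2; median log2 FC 0.46). Col4a1 rose from 76.3 ± 13.2 to 379 ± 12.5 CPM (2.32, SE 0.0973, adjusted p = 1.92e-09), Col4a2 from 44.3 ± 10.2 to 194 ± 12.7 CPM (2.14, SE 0.123, adjusted p = 3.27e-08) and Lama1 from 81.2 ± 11.5 to 336 ± 26 CPM (2.06, SE 0.0908, adjusted p = 2.98e-09). All 3 encode chains of basement membrane collagen or laminin. Plat rose by 1.29 (SE 0.242, adjusted p = 0.00122) and the activin antagonist Fst fell (-1.15, SE 0.233, adjusted p = 0.00215; 0.0137 without WT replicate 3 and 0.016 without Hmgn1-/-Hmgn2-/- replicate 1). The summed parietal level was 1338, 1643 and 1645 CPM in WT, 1602, 1492 and 1476 CPM in Hmgn1-/-, 1736, 1653 and 1290 CPM in Hmgn2-/- and 2415, 2422 and 2247 CPM in the double knockout, with Lamc1 most abundant and no marker at 0. These sums stood apart only in the double knockout, and their part in the result was not tested.

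Of 6 visceral endoderm markers tested, edgeR called 0 and DESeq2 called 0, with 4 at an unadjusted p under 0.05 in edgeR and a median log2 FC of -0.165; edgeR called 1 without Hmgn1-/-Hmgn2-/- replicate 3. Their sum was 14.48, 18.67 and 19.73 CPM in WT, 21.98 to 26.28 CPM in Hmgn1-/-, 17.16 to 23.31 CPM in Hmgn2-/- and 20.19 to 26.17 CPM in the double knockout. Every Hmgn1-/- and double-knockout library thus lay above the WT libraries, and the Hmgn2-/- libraries overlapped them. Without Trf, the most abundant gene, the order turned, and every knockout library lay below the WT libraries. These sums were 4.192 to 5.092 CPM in WT, 2.752 to 3.951 CPM in Hmgn1-/-, 2.99 to 3.628 CPM in Hmgn2-/- and 3.616 to 3.984 CPM in the double knockout. Most of the sum was Trf, with a log2 FC of 0.59 (SE 0.146) in the double knockout that is short of the fold limit, and 4 of the 11 genes had 3 counts or fewer in every library, among them Ttr at 0 and Afp at no more than 3. Of the 12 pluripotency markers, edgeR and DESeq2 each called 0, with 6 at an unadjusted p under 0.05 and a median of -0.08. Their sum was 6106 to 7321 CPM with no separation by genotype and Pou5f1 most abundant. Pou5f1 had a log2 FC of -0.10 (SE 0.0607), Sox2 of -0.07 (SE 0.0496) and Nanog of -0.45 (SE 0.0666, adjusted p = 0.000195) in the double knockout. Other genes of this list lay apart from WT in both directions, short of the limits. Klf4 went from 126 ± 13.4 to 210 ± 8.73 CPM, Esrrb from 401 ± 18.2 to 485 ± 25.9 CPM and Utf1 from 765 ± 59.2 to 882 ± 39.8 CPM. Klf2 went the other way, from 287 ± 3.84 to 225 ± 35.4 CPM. Libraries of WT and the double knockout did not overlap for these genes. Their means were already apart from WT in Hmgn1-/- and Hmgn2-/-, at 239 and 202 CPM for Klf4 and 554 and 498 CPM for Esrrb. For Utf1 they were 930 and 914 CPM, and for Klf2 224 and 235 CPM.

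Several of the 7 genes are best known from other cell types, whose markers were measured too. Of 12 endothelial markers tested, 2 rose and 4 fell (6 by DESeq2; median -0.645). Cdh5, the cadherin of endothelial junctions, rose from 0.125 ± 0.165 to 1.12 ± 0.215 CPM (2.97, SE 0.547, adjusted p = 0.00105) and Esam from 3.53 ± 0.968 to 10.8 ± 1.28 CPM (1.64, SE 0.186, adjusted p = 1.93e-05). Cdh5 had few reads: WT libraries ran from 0 to 0.313 CPM, and no library held more than 36 counts. It was not tested in either single knockout against WT. The receptors Flt1 (-1.79, SE 0.315, adjusted p = 0.000743), Kdr (-1.66, SE 0.417, adjusted p = 0.00828) and Tek (-1.62, SE 0.137, adjusted p = 1.34e-06) fell, as did Vwf (-1.26, SE 0.214, adjusted p = 0.00056). Kdr lost its call when any library but WT replicate 1 was left out, with an adjusted p of 0.0304 without WT replicate 2, 0.0478 without WT replicate 3 and 0.0312, 0.0388 and 0.0189 without Hmgn1-/-Hmgn2-/- replicates 1, 2 and 3. The endothelial sum was 138.8 to 147.9 CPM in WT and 98.8 to 112.8 CPM in the 9 knockout libraries, with Pecam1 most abundant and 1 of the 13 genes at 3 counts or fewer in every library.

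Of 5 macrophage markers tested, 2 fell (2 by DESeq2; median -0.61): Cd68 by a log2 FC of -1.78 (SE 0.179, adjusted p = 7.08e-06) and Itgam of -1.57 (SE 0.36, adjusted p = 0.00483). The call of Itgam was lost without WT replicate 2 (adjusted p = 0.0235), Hmgn1-/-Hmgn2-/- replicate 1 (0.0311) or its replicate 3 (0.0268), and 1 gene of the list was called without WT replicate 2. The macrophage sum was 90.99 to 144.9 CPM in WT and 57.7 to 75.5 CPM in the knockouts, with Laptm5 most abundant and 3 of the 10 genes in the table at 3 counts or fewer in every library. Of the mast cell markers only Hdc was tested, and edgeR and DESeq2 called 0, with 0 at an unadjusted p under 0.05 (log2 FC -0.71). The other 6 mast cell markers had 3 counts or fewer in every library, with Cpa3, Fcer1a, Mcpt4, Ms4a2 and Tpsb2 at 0 and Cma1 at no more than 1, and the sum was 0.238 to 1.53 CPM.

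For bone and cartilage, where Pth1r is best known, 2 markers were tested and edgeR and DESeq2 called 0 (2 at an unadjusted p under 0.05, median -0.17), and the sum of 103.6 to 132.9 CPM was mostly Alpl, which mESCs express. Without Alpl the sum was 9.278 to 9.863 CPM in WT and lower, at 4.678 to 7.2 CPM, in the 9 knockout libraries. For podocytes, 4 markers were tested and edgeR and DESeq2 called 0 (1 at an unadjusted p under 0.05, median -0.01). The podocyte sum was 167.9 to 182 CPM in WT and 192.4 to 246.8 CPM in the 9 knockout libraries, all above WT as Clic5 was, but without a further step in the double knockout (199.4 to 235.1 CPM). Most of it was Cd2ap and Nphs1, and Nphs1 had a log2 FC of 0.765 (SE 0.0814), short of the fold limit. Of 4 fibroblast markers tested 3 fell (3 by DESeq2; median -1.57): Col1a2 (-2.41, SE 0.394, adjusted p = 0.000432), Col1a1 (-1.81, SE 0.24, adjusted p = 7.7e-05) and Thy1 (-1.32, SE 0.16, adjusted p = 3.62e-05). The fibroblast sum was 17.7 to 22.2 CPM in WT and 5.83 to 8.99 CPM in the knockouts, with Thy1 most abundant. The part of these cell types in the levels of the 7 genes was not tested.

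Other genes of the pathways in which the 7 genes act were taken from 8 lists. For the partners of NOSTRIN and the F-BAR proteins, 1 of 22 tested rose and 1 fell in the double knockout (2 by DESeq2; median log2 FC 0.03), with 5.00% of all genes called downward. Cav1, the caveolin, fell: it had 24, 17 and 32 reads in WT and 2, 1 and 4 in the double knockout, so that WT was 10.6-fold (4.89 to 27.3) higher (log2 FC -3.34, SE 0.481, adjusted p = 0.000151 in edgeR). The kinase Fes rose (1.25, SE 0.32, adjusted p = 0.00933), but leaving out any of the 6 libraries except WT replicate 1 ended that call, with adjusted p values of 0.0246 to 0.044 (0.0276 without WT replicate 2, 0.0308 without WT replicate 3, 0.044, 0.0246 and 0.0266 without Hmgn1-/-Hmgn2-/- replicates 1, 2 and 3). The list had 1 called gene without WT replicate 2 or 3 or without Hmgn1-/-Hmgn2-/- replicate 1 or 2. Nos3, the synthase itself, was at 12.9 ± 1.24 CPM in WT and 19.1 ± 3.39 CPM in the double knockout, with a log2 FC of 0.57 (SE 0.129) that is short of the fold limit.

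In the BMP pathway, in which Bmper acts, 3 of 14 extracellular modulators fell (4 by DESeq2; median -0.54; 5 called without WT replicate 1). The BMP antagonist Nog fell from 2.22 ± 0.544 to 0.576 ± 0.243 CPM (-1.95, SE 0.332, adjusted p = 0.000584) and the protease Bmp1 from 13.9 ± 2.96 to 4.38 ± 0.185 CPM (-1.66, SE 0.157, adjusted p = 3.94e-06); the other was Fst, described above. Of 20 ligands, receptors, Smads and Id genes 1 rose and 3 fell (4 by DESeq2; median 0.17). The ligand Bmp6 rose from 1.63 ± 0.183 to 9.54 ± 1.04 CPM (2.53, SE 0.165, adjusted p = 1.09e-07). The Id genes are direct targets of BMP signalling, and Id2 fell from 42.4 ± 13.3 to 7.56 ± 1.32 CPM (-2.48, SE 0.204, adjusted p = 1.09e-06), Id3 by a log2 FC of -1.49 (SE 0.206, adjusted p = 0.000111) and Id4 of -1.46 (SE 0.204, adjusted p = 0.000119). Id1 did not fall with them: it was at 179 ± 63.1 CPM in WT and 199 ± 48.1 CPM in the double knockout (0.16, SE 0.207, adjusted p = 0.608), and the groups overlapped. Id2, Id3 and Id4 were already lower in the single knockouts (Id2 at -2.38 in Hmgn1-/- and -2.32 in Hmgn2-/-), unlike Bmper, whose level stepped again in the double knockout. That difference between genes was not tested.

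Among 31 forkhead genes, 2 rose and 1 fell (3 by DESeq2; median 0.04). Foxf2, the neighbour of Foxq1, had 1, 2 and 5 reads in WT and 28, 23 and 32 in the double knockout, a ratio of scaled counts of 10.2 (4.95 to 24.4; adjusted p = 0.000156 in edgeR). Foxa2, a factor of endoderm, rose from 0.524 ± 0.14 to 2.08 ± 0.317 CPM (2.03, SE 0.292, adjusted p = 0.000151). Foxi3 fell (-1.12, SE 0.166, adjusted p = 0.000186), but its log2 FC was -0.94 without WT replicate 2, under the fold limit.

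Of 21 tested genes of parathyroid hormone signalling, 2 rose (2 by DESeq2; median 0.08): Ramp2, a partner of G protein-coupled receptors including PTH1R, from 1.36 ± 0.132 to 3.38 ± 0.304 CPM (1.30, SE 0.206, adjusted p = 0.000329), and the adenylyl cyclase Adcy7 from 2.86 ± 0.545 to 6.32 ± 0.834 CPM (1.12, SE 0.178, adjusted p = 0.000354). Of the ligands of PTH1R, Pthlh had 0 counts in every library and Pth had no more than 1.

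Of 36 proteoglycan cores and chondroitin sulfate synthesis genes, 1 rose and 6 fell (7 by DESeq2; median -0.12). Versican, Vcan, fell from 27 ± 2.52 to 7.43 ± 1.26 CPM (-1.84, SE 0.123, adjusted p = 1.41e-07) and the hyaluronan receptor Cd44 from 1.75 ± 0.353 to 0.312 ± 0.125 CPM (-2.48, SE 0.344, adjusted p = 0.000115). Vcan was already at 7.67 CPM in Hmgn1-/- and 7.12 CPM in Hmgn2-/-, and Cd44 at 0.438 and 0.392 CPM. The sulfotransferases Chst3 (-1.36, SE 0.216, adjusted p = 0.000347) and Chst7 (-1.19, SE 0.28, adjusted p = 0.00555) and the core protein Bgn (-1.55, SE 0.346, adjusted p = 0.00399) fell as well, whereas brevican, Bcan, rose (1.07, SE 0.224, adjusted p = 0.00252). Vcan, Cd44 and Chst3 kept their call with any library left out. Other calls in this list rest on single libraries: 3 genes were called without Hmgn1-/-Hmgn2-/- replicate 2 and 4 without its replicate 3. Chst7 and Bgn each lost their call without either of these, with adjusted p values of 0.0266 and 0.0305 for Chst7 and 0.0125 and 0.0201 for Bgn; Chst7 also without WT replicate 2 (0.0117) or 3 (0.0275), Bgn also without WT replicate 3 (0.0338) or Hmgn1-/-Hmgn2-/- replicate 1 (0.0234) and in a fit of all 12 libraries (0.0129). Bcan lost its call without WT replicate 1 (log2 FC 0.98) and without Hmgn1-/-Hmgn2-/- replicate 2 (adjusted p = 0.0118) or 3 (0.0121).

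For the MiT family and its lysosomal targets, 1 of 22 fell (1 by DESeq2; median -0.02): Rragd, a Rag GTPase, from 45.4 ± 1.61 to 13.5 ± 0.468 CPM (-1.75, SE 0.0804, adjusted p = 4.42e-09). The relatives of Tfec were at log2 FC values of -0.64 (Mitf), -0.12 (Tfeb) and -0.38 (Tfe3), short of the fold limit. For the CLIC family and the ERM linkers of the actin cortex, 1 of 13 rose (1 by DESeq2; median -0.05): Clic3, from 0.212 ± 0.0579 to 0.86 ± 0.159 CPM (1.98, SE 0.39, adjusted p = 0.00174; 0.0122 without Hmgn1-/-Hmgn2-/- replicate 1, which leaves 0 called by edgeR). Ezr, the ezrin gene, had a log2 FC of 0.23, Clic1 of -0.51 and Clic4 of -0.05.

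**Figure D4:**
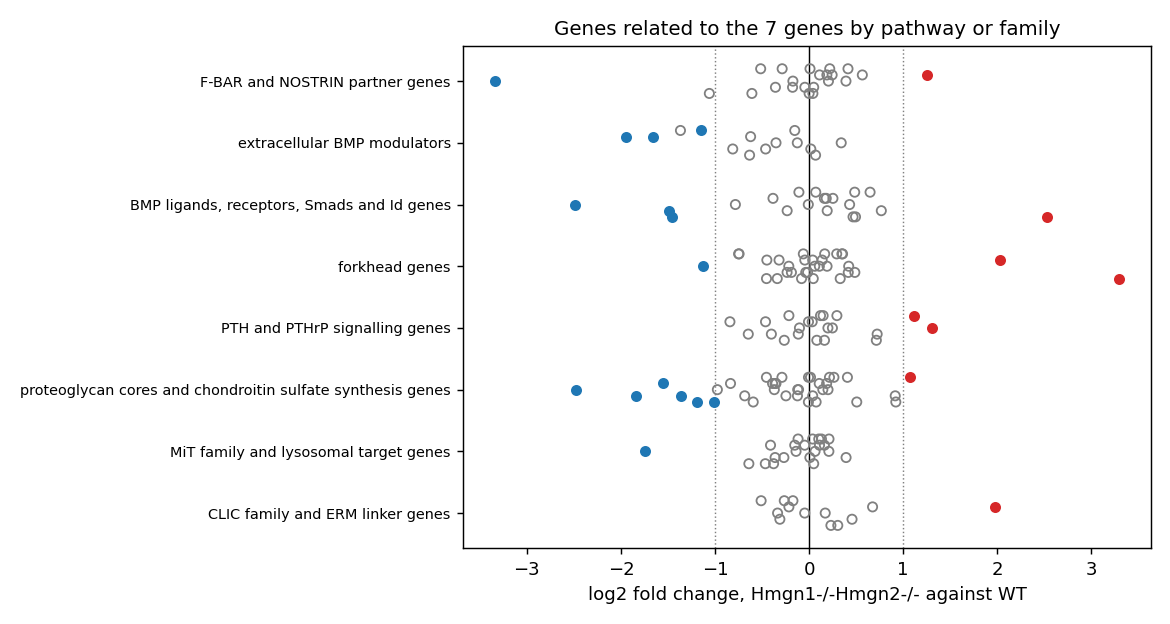
Log2 FC in the double knockout against WT of each tested gene in the 8 lists of related genes, with filled red and blue points for genes called upward and downward and dotted lines at the fold limit. Most lists lie around 0, the extracellular BMP modulators lie lower with a median of -0.54, and the called genes run from -3.34 (Cav1) to 3.30 (Foxf2).

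The promoters of the members were read to see what they share beyond the levels. RefSeq promoter windows of GRCm38.p6, from 250 bases before to 50 bases after a start, were found for 6 of the 7 genes and gave 9 promoters, 3 for Pth1r and 2 for Srgn; Foxq1 has none there. The hexamers that GATA factors bind (AGATAA, its relative TGATAA, the form AGATAG and its relative TGATAG) were searched on both strands and found in 1 of the 9, that of Tfec, at 81 bases before the start (offset -81). Of all 32851 promoters 29.8% hold such a hexamer. CACGTG was in 0 of 9 (7.15% of all promoters), and TATAAA, searched on both strands, in 1 of 9, the upstream promoter of Srgn (offset -98; 13.6% of all promoters). No promoter held 2 of these motifs. The Tfec and Srgn promoters are shown since they hold the matches, and capitals mark the matched hexamer. The Tfec sequence is the minus strand of chr6:16898465-16898691, and the Srgn sequence the minus strand of chr10:62527452-62527695, both upstream of the annotated exons.
Tfec: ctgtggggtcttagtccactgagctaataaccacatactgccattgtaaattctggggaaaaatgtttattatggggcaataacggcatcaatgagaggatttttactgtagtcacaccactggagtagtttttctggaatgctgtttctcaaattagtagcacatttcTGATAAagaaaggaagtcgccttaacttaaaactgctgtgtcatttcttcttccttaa
Srgn: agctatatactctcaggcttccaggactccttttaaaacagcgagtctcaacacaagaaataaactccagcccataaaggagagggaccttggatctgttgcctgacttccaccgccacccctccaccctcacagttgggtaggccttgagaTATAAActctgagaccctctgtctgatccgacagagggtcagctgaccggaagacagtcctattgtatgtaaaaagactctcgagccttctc
A match is a description of the letters and not of a bound site. CpG content differed among the members: Bmper had 31 CpG dinucleotides in its 300 bases (observed to expected ratio 0.789), Clic5 16 (0.754) and the promoters of Pth1r 27, 23 and 5, whereas Nostrin had 3 (0.157), Tfec 3 (0.246) and Srgn 4 and 8. The median of all promoters was 7, with a ratio of 0.384. The 7 genes thus include both CpG-rich and CpG-poor promoters.

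The members lie on 6 chromosomes, Bmper and Pth1r both on chromosome 9. The 2 nearest tested genes on either side of each member gave 28 neighbours, of which 1 rose and 1 fell in the double knockout, beside 1.30% of all genes called upward and 5.00% downward, with a median log2 FC of -0.04 beside 0.0037 over all genes. Those called were Foxf2, 64.8 kb from Foxq1, and Cav1, 408 kb from Tfec. The neighbours within 11 kb had small values: 0.09 (SE 0.0645) for Spc25, 4.57 kb from Nostrin, 0.13 (SE 0.0766) for Vps26a, 7.03 kb from Srgn, and -0.06 (SE 0.0847) for Ccdc12, 10.5 kb from Pth1r, the last turning to 0.0204 without Hmgn1-/-Hmgn2-/- replicate 1. Others next to a member lay further from 0, though short of the limits: Myl3, 16.5 kb from Pth1r, had -0.84 (SE 0.565), Enpp4, 29 kb from Clic5, 0.58 (SE 0.114), Bbs9, 335 kb from Bmper, -0.76 (SE 0.11), and Tes and Mdfic, 167 and 1030 kb from Tfec, -0.81 (SE 0.143) and -0.81 (SE 0.208). Foxc1, on the far side of Foxf2 at 246 kb from Foxq1, had -0.19 (SE 0.338), and 0.0388 without WT replicate 3. Lrp2, which is also on the primitive endoderm list, lies 235 kb from Nostrin and had 0.64 (SE 0.0852).

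**Figure D5:**
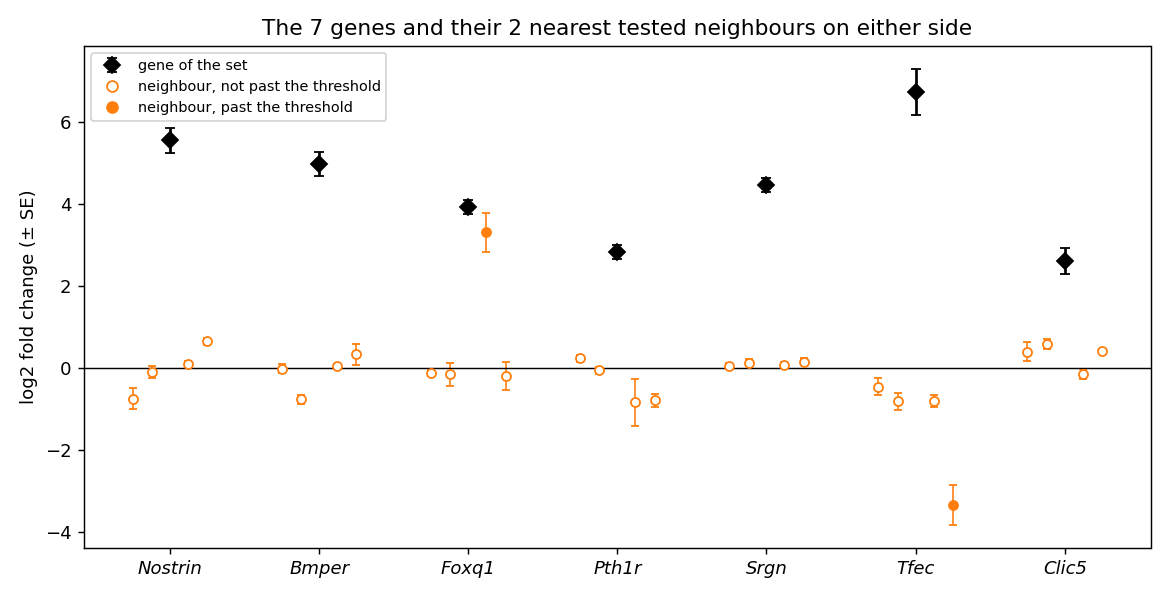
Log2 FC in the double knockout against WT of each member and of the 2 nearest tested genes on either side, placed in their order and not to scale, with bars for the SE. Foxf2 at 3.30 and Cav1 at -3.34 are the neighbours past the limits.

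Which genes were most like each member was measured over the 12 libraries, as the root mean square difference in log2 CPM after centring, among the 11555 genes averaging 50 counts or more. This is a description with no test. For Nostrin these were Cubn (0.244), Pdgfra (0.266) and Dab2 (0.347), and for Tfec they included Sox17 (0.306) and Pdgfra (0.391). Bmper and Srgn were alike (0.269) and shared Dab2 (0.282 for Bmper and 0.208 for Srgn) and Gata6 (0.327 and 0.303). Foxq1 was most like Gata4 (0.215), the Wnt antagonist gene Dkk1 (0.274) and Pdzd3 (0.313), Pth1r most like Fgf10 (0.197), Bmp6 (0.248) and Amn (0.273), and Clic5 most like Flrt3 (0.317), Col4a1 (0.347) and Gdpd5 (0.369). Fgf10 was at 0.844 CPM in WT and 4.82 CPM in the double knockout, and Flrt3 at 2.63 and 11.2 CPM. Genes of the primitive endoderm list were among the 3 most alike for Nostrin, Bmper, Foxq1, Pth1r, Srgn and Tfec, while for Clic5 Col4a1 is on the parietal list. The members were chosen for their rise over these same libraries, in which most genes of the primitive endoderm list rose too. Such matches follow in large part from that choice, so nothing is read from them. The order depends on the prior count for genes with few reads: with 0.5 in place of 2, Sox17 was at 0.856 from Tfec and Pdgfra was not among its 3 most alike, which then included Cubn (0.855). Bmper (0.472) took the place of Dab2 for Nostrin, Dab2 (0.309) that of Dkk1 for Foxq1 and Cubn (0.339) that of Gata6 for Bmper, while the 3 genes were the same for Pth1r, Srgn and Clic5.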

How the data were processed

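Poly-A RNA of 12 mESC libraries was measured by bulk RNA-Seq. The values are counts per gene, whole numbers deposited by the authors without normalization. The submitters' processing notes name STAR, DESeq2 and mm10. Totals per library, given above, set the precision. All steps were run on the whole table in R 4.3.3. Each pair of genotypes was compared in a fit of its 6 libraries with edgeR 4.0.16 (TMM, filterByExpr, quasi-likelihood test, Benjamini-Hochberg adjustment over all genes tested), and the departure from additivity in a fit of all 12. All 7 members passed the filter in every comparison. Genes named are the 7 members; of each list up to 6 called genes by size of log2 FC in the double knockout against WT; the 2 nearest tested genes on either side of a member; and the 3 genes most like each member (prior count of 2). A gene that this rule would name is not reported here and is kept only in counts and sums. A few list genes short of the limits, such as Nos3, were named after their values were seen. The members and lists were chosen with earlier results of these data known. RefSeq symbols of GRCm38 matched 21563 of 23412 gene names. Alternatives were DESeq2 1.42.0, RLE factors, no filter or at least 10 counts per library, adjusted p values under 0.05, no fold limit, replicate number as a block, a single fit of all 12 libraries, each library left out in turn, a prior count of 0.5 and CPM on library totals. The edgeR and DESeq2 tests were run on simulated counts for Hmgn2-/- against Hmgn1-/- and for the double knockout against WT. Changes were planted there only in genes above a minimum count. The departure from additivity, and changes in genes with few reads, were not covered.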

Additional observations from a re-analysis of the deposited data

Results flagged for a closer look

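Of the 42 genes named from the lists, 19 departed from additivity: in a fit of all 12 libraries, edgeR's quasi-likelihood test, adjusted by Benjamini-Hochberg, gave p under 0.01 with a log2 value of at least 1 in size for the double knockout minus both single knockouts plus WT. Over all genes 499 of 14323 (3.48%) did so. The named genes were selected on passing the limits in the double knockout against WT, values that also enter this contrast, so their count is raised by that choice and nothing is read from it. Of these, 5 were below 0, all of them primitive endoderm markers: Pdgfra (-2.39), Sox17 (-2.27), Cubn (-2.24), Dab2 (-1.39) and Gata6 (-1.3), with adjusted p values from 4.8e-05 (Pdgfra) to 0.00566 (Gata6). Like most of the 7 genes, they rose in each single knockout and by less than the product of both in the double knockout. The value was above 0 for 14 genes. Of these Plat (1.8) rose in the double knockout, and the others fell in it, and by less than the product of both single knockouts: Col1a2 (3.23), Flt1 (2.34), Nog (2.29), Id2 (2.23), Thy1 (1.94), Fst (1.87), Vcan (1.86), Id3 (1.6), Cd68 (1.54), Col1a1 (1.5), Bmp1 (1.37), Tek (1.36) and Rragd (1.02).

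Leaving out 1 of the 12 libraries ended some of these calls, by the adjusted p or, for Rragd, by the fold limit. The call of Col1a1 ended in 11 of 12 cases, all but WT replicate 2 (adjusted p up to 0.0274), and that of Nog in 10, all but WT replicate 1 and Hmgn1-/-Hmgn2-/- replicate 1 (up to 0.0359). Flt1 lost its call in 8 cases, WT replicates 2 and 3, all Hmgn1-/- replicates, Hmgn2-/- replicate 2 and Hmgn1-/-Hmgn2-/- replicates 1 and 3 (up to 0.0192). Gata6 did so in 8, WT replicates 1 and 3 and replicates 1 and 2 of each single knockout and 1 and 3 of the double knockout (up to 0.0211). Id3 did so in 7, WT replicates 2 and 3, Hmgn1-/- replicates 1 and 2, Hmgn2-/- replicate 2 and Hmgn1-/-Hmgn2-/- replicates 2 and 3 (up to 0.0191). Col1a2 did so in 6, WT replicate 3, Hmgn1-/- replicates 2 and 3, Hmgn2-/- replicate 2 and Hmgn1-/-Hmgn2-/- replicates 1 and 2 (up to 0.0208). Plat did so in 5, WT replicate 3, Hmgn1-/- replicates 1 and 2 and Hmgn1-/-Hmgn2-/- replicates 1 and 3 (up to 0.0156), and Rragd in 5, WT replicate 2, Hmgn1-/- replicate 3, Hmgn2-/- replicates 2 and 3 and Hmgn1-/-Hmgn2-/- replicate 2 (smallest value 0.95). Cd68 did so in 2, Hmgn1-/- replicate 1 and Hmgn2-/- replicate 2 (0.0102). The sign did not change in any of these cases. The cause of the departures was not tested.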

How the results depend on the processing

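The log2 FC of the 7 genes kept its sign in every comparison that chose them under each alternative run; 13 of 294 values with a library left out, and 0 of 194 others, moved by more than the standard error. With at least 10 counts in every library only Foxq1, Pth1r and Srgn were tested against WT. Between single knockouts the sign turned when a library was left out: Nostrin ran from -0.252 to 0.179, Bmper from -0.118 to 0.203 and Pth1r from -0.0464 to 0.185. In the double knockout against WT the sign turned for 4 neighbours: Rp9 ran from -0.108 to 0.0861, Dpy19l1 from -0.0138 to 0.0846, Foxc1 from -0.408 to 0.0388 and Ccdc12 from -0.123 to 0.0204. None of these was called.

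Without the fold limit, by construction, more genes were called: 2412 in place of 832 (Hmgn1-/- against WT), 1400 in place of 724 (Hmgn2-/- against WT), 2544 in place of 890 (double knockout against WT), 150 in place of 70 (double knockout against Hmgn1-/-), 48 in place of 24 (single knockouts), 905 in place of 499 (departure from additivity), 58 in place of 23 (8 lists of related genes) and 41 in place of 27 (10 marker lists). At an adjusted p under 0.05 the departure from additivity gave 798. The count for the double knockout against Hmgn2-/-, 6, was the least stable: 36 with DESeq2, 21 with no filter beyond 1 count, 24 at an adjusted p under 0.05, 18 in a fit of all 12 libraries, and 1 to 12 with a library left out; the cause was not tested. With the replicate number as a block it was 32, and the other counts were 902, 676, 942, 95, 30 and 582 in the order Hmgn1-/-, Hmgn2-/- and double knockout against WT, double knockout against Hmgn1-/-, single knockouts and additivity. Same-numbered libraries of different genotypes had residual correlations of 0.0169 to 0.301, 11 of 18 above 0.1. The median was -0.0734 for libraries of different genotypes with different numbers. The labels do not say whether the numbers pair the samples, and the main fits used no block. On library totals, an alternative chosen after seeing the data, 73 genes in place of 78 had the step, with all 7 members among them. Depth limits Tfec, Nostrin and Bmper most, whose WT libraries held 0 to 5 reads.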
